A study of Sus scrofa with 16 samples.

Results

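The hormones leptin (LEP), adiponectin (ADIPOQ), resistin (RETN) and NAMPT (visfatin) and the receptors LEPR, ADIPOR1 and ADIPOR2 were examined in subcutaneous adipose tissue of pigs. Probes were chosen by gene name in the scanner files among the probes that were not controls, and had to be well above background on at least 8 of 16 arrays. The array carried 20 such probes for the 7 genes among 43603 probes, and 17 probes of 5 genes passed (8 for ADIPOQ, 3 for ADIPOR2 and 2 each for LEP, ADIPOR1 and NAMPT) among 32096 probes kept in all, so that 5 of 4075 named genes with a kept probe are described. The probe of LEPR and the 2 probes of RETN did not pass.

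The pigs came from lines divergent for residual feed intake, which is how much more or less an animal eats than its growth and maintenance predict. There were 8 low-RFI pigs (strain RFIneg) and 8 high-RFI pigs (strain RFIpl), all fed freely and sampled at 20 kg body weight, with 1 Agilent 1-colour array per pig. Age and sex are not given in the sources used here. The replicate numbers 1 to 8 come from the labels, which do not say what separates replicates 5 to 8 from replicates 1 to 4. Signals are log2 values relative to the 75th percentile of each array, and a difference of 1 is a doubling of signal. Signals of different probes depend on the probe, so the order of the genes' levels cannot be read from them.

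Leptin is secreted by adipocytes in proportion to fat stores and acts on the brain through LEPR to lower appetite. Adiponectin is secreted by adipocytes as multimers that raise insulin sensitivity and fatty acid oxidation in liver and muscle through ADIPOR1 and ADIPOR2, which are membrane proteins with ceramidase activity linked to AMPK and PPARA. NAMPT makes the precursor of NAD inside cells and also circulates, and resistin is a small cysteine-rich protein that is adipocyte-derived in mice and mainly made by macrophages in humans.

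All 16 adipocyte markers examined (such as FABP4, FASN, LIPE and PPARG) were above background. Between 68.7% and 80.3% of spots per array were well above background, and pairs of arrays correlated at 0.944 to 0.989. On 4 arrays other markers stood apart, given here as the mean of each list after centring each gene. The 9 skeletal muscle markers averaged 7.78 on low-RFI replicate 8, against at most 1.53 on the other arrays. The 5 epithelial markers averaged 3.73 on high-RFI replicate 6 and 2.52 on high-RFI replicate 2. The 6 macrophage markers averaged 1.68 and the 7 T-cell markers 1.72 on high-RFI replicate 5. Without these 4 arrays 0 of all 32096 kept probes passed in limma between replicates 5 to 8 and 1 to 4, so that every call between the sets over all pigs was lost in that fit. Of the 4 arrays only high-RFI replicate 2 is in replicates 1 to 4, so replicates 5 to 8 lost more pigs. In that fit 6400 probes still had an unadjusted limma p under 0.05, against 7503 with all arrays. In this bulk tissue, fewer cells of a type and less RNA per cell cannot be told apart.

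The probes are 60 bases long and are shown because the results turn on how well those of a gene agree. The 2 probes of LEP, and likewise those of NAMPT, share no run of more than 6 bases, so that they read separate stretches of a transcript. LEP A_72_P442233 starts at base 1074 of the transcript named in the files and is shown whole, and A_72_P165551 starts at base 3082. For that probe and for the NAMPT probes, which start at bases 1789 and 2257, the first 30 bases are given.
LEP A_72_P442233: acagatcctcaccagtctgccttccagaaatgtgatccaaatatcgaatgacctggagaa
LEP A_72_P165551: gaagcaggatagctgagactataaaaataa
NAMPT A_72_P440276: ccctttgccaatagatagtaattcaatctg
NAMPT A_72_P035446: catgttggtcattgtattgtaccagtgaaa

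Both ADIPOR1 probes are shown whole, and start at bases 605 and 973 of one transcript.
ADIPOR1 A_72_P187361: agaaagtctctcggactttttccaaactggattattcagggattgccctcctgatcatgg
ADIPOR1 A_72_P077761: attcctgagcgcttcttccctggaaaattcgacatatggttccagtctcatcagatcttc

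Of the 3 ADIPOR2 probes, 2 share 55 of their 60 bases (capitals) and are not independent readings. The third probe, of which the first 30 bases are given, starts at base 2389 of another transcript record.
ADIPOR2 A_72_P302919: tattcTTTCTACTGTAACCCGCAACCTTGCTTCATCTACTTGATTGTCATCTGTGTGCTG
ADIPOR2 A_72_P440141: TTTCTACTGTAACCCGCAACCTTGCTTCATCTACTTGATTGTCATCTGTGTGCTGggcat
ADIPOR2 A_72_P081001: ttccccatgggatttccctacttgctgtgt

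The ADIPOQ probes include some that overlap in sequence. In 3 of them a window of 27 bases differs only within the 5 bases in capitals. The windows shown of 2 further probes differ in the length of a run of A (capitals). Those 2 probes start at bases 2461 and 2478, and their longest shared run is 26 bases. The probe A_72_P767053, from base 484 of its transcript, is shown as one with no such overlap.
ADIPOQ A_72_P751372: ttttccacTGAGTtaggggtgactacg
ADIPOQ A_72_P732525: ttttccacGAGGTtaggggtgactacg
ADIPOQ A_72_P752533: ttttccacTGAGGtaggggtgactacg
ADIPOQ A_72_P736683: gatactcttcAAAgttttag
ADIPOQ A_72_P503732: gatactcttcAAAAgttttag
ADIPOQ A_72_P767053: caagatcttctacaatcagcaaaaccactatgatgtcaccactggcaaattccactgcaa

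Leptin was the most variable of the genes with a kept probe. Its probe A_72_P165551 was at 1.50, 2.58 and 3.52 (lowest, median and highest) in low-RFI pigs and at 1.30, 2.67 and 3.48 in high-RFI pigs. The lines overlapped over nearly their whole range. The SD over 16 arrays was 0.75 for this probe and 0.85 for A_72_P442233, above those of 91.6% and 93.8% of kept probes. Both probes ordered the pigs alike (Pearson r = 0.983, Spearman rho = 0.974, permutation p = 1e-05 for each, the smallest the permutations can give, with r = 0.979 without the 2 arrays farthest from the median). Within the lines r was 0.978 in low-RFI pigs and 0.986 in high-RFI pigs, and within the replicate sets 0.950 in replicates 5 to 8 and 0.993 in replicates 1 to 4.

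Adiponectin varied little between pigs. Its brightest probe A_72_P736683 was at 8.17, 8.31 and 8.59 in low-RFI pigs and at 7.92, 8.34 and 8.70 in high-RFI pigs. All low-RFI values lay within the high-RFI range. The SDs of the 8 ADIPOQ probes over 16 arrays were 0.17 to 0.29, which exceeded those of 13% to 45.3% of kept probes. Over the 28 pairs of these probes r was 0.659 to 0.952, with a median of 0.814. It was 0.153 to 0.940 within replicates 5 to 8 and 0.745 to 0.974 within replicates 1 to 4.

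The adiponectin receptors differed in spread. ADIPOR1 (A_72_P077761) was at -0.97, -0.66 and -0.34 in low-RFI pigs and at -0.85, -0.58 and -0.36 in high-RFI pigs, again with overlap of the lines. ADIPOR2 (A_72_P081001) was at 7.65, 7.87 and 8.33 in low-RFI pigs and at 7.45, 7.97 and 8.49 in high-RFI pigs, where the high-RFI range enclosed the low-RFI range. The 2 ADIPOR1 probes correlated at r = 0.915 (rho = 0.906), and the 3 ADIPOR2 pairs at 0.611 to 0.846, all with permutation adjusted p of at most 0.0147 over 34 pairs of probes. The highest ADIPOR2 value was that of the 2 probes that overlap in sequence. Within low-RFI pigs A_72_P081001 correlated with these at 0.426 and 0.673, and within high-RFI pigs at 0.752 and 0.972.

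NAMPT (A_72_P035446) was at -0.80, 0.56 and 0.88 in low-RFI pigs and at -0.08, 0.24 and 0.63 in high-RFI pigs. The SD was 0.55 in low-RFI pigs and 0.20 in high-RFI pigs (n = 8 each), and the lowest value was that of low-RFI replicate 1. Without that pig the low-RFI SD was 0.33 (n = 7). Its 2 probes correlated at r = 0.915 (rho = 0.818).

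LEPR and RETN gave no level in most pigs. The LEPR probe was well above background in low-RFI replicates 2 and 3, at -3.08 and -6.08, and on no high-RFI array, with the remaining arrays between -8.74 and -7.27. RETN probe A_72_P505565 was well above background in 4 low-RFI pigs (replicates 2, 4, 5 and 6, at -5.37, -5.46, -3.83 and -5.75) and 2 high-RFI pigs (replicates 1 and 4, at -5.81 and -4.79). RETN probe A_72_P177496 was well above background on no array. No fold is given for these genes.

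**Figure D1:**
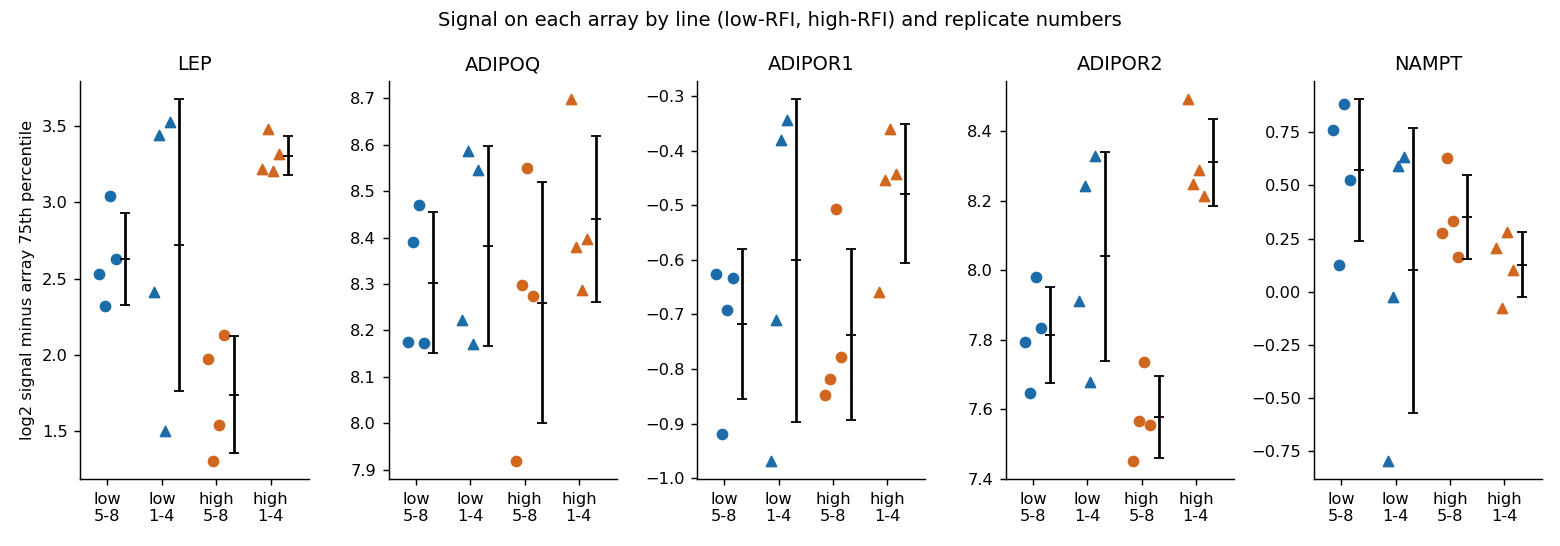
Signal of the brightest probe of LEP, ADIPOQ, ADIPOR1, ADIPOR2 and NAMPT on each of 16 arrays (log2 minus the array's 75th percentile), by line and replicate numbers, 4 pigs per column, with mean and SD as bars. In high-RFI pigs, LEP lay between 1.30 and 2.13 in replicates 5 to 8 and between 3.20 and 3.48 in replicates 1 to 4.

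None of the 17 probes passed the test between the lines. LEP averaged 2.68 ± 0.66 in low-RFI pigs and 2.52 ± 0.88 in high-RFI pigs (SD, n = 8 each), a difference of 0.15 (SE 0.36, 95% interval -0.61 to 0.92). ADIPOQ averaged 8.34 ± 0.18 in low-RFI pigs and 8.35 ± 0.23 in high-RFI pigs, a difference of -0.01 (interval -0.24 to 0.22). The intervals of the ADIPOR1, ADIPOR2 and NAMPT differences were -0.28 to 0.18, -0.36 to 0.33 and -0.32 to 0.52. In limma, 0 of 17 probes passed an adjusted p of 0.05 (adjusted p = 1 for each) and 0 had an unadjusted p under 0.05. Over all 32096 kept probes 0% passed, and 3.63% had an unadjusted p under 0.05. The intervals for ADIPOQ, ADIPOR1, ADIPOR2 and NAMPT exclude a doubling of signal, and the wider interval of LEP reaches almost that far.

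Replicates 5 to 8 and 1 to 4 were compared with line in the model. The ADIPOR2 probe A_72_P081001 fell, and averaged 7.70 ± 0.17 in replicates 5 to 8 and 8.18 ± 0.26 in replicates 1 to 4 (SD, n = 8 each). The difference was -0.48 (SE 0.12, limma adjusted p = 0.0316), and the 8 values of replicates 5 to 8 ranged from 7.45 to 7.98 against 7.68 to 8.49 in replicates 1 to 4. The other ADIPOR2 probes did not pass, at -0.37 (adjusted p = 0.18) and -0.18 (adjusted p = 0.54) in limma. The call did not hold without the 4 arrays that stood apart, at -0.42 (adjusted p = 0.146), and was lost on leaving out any 1 of 10 arrays (each high-RFI array, and low-RFI replicates 2 and 4), with limma adjusted p of 0.051 to 0.0648. It held on leaving out any of the other 6.

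The leptin difference between the replicate sets did not pass, at -0.83 (SE 0.31, limma adjusted p = 0.12) and -0.99 (SE 0.33, adjusted p = 0.089) for the 2 probes. Without low-RFI replicate 3, the lowest low-RFI value of both probes, A_72_P165551 was at -1.07 (adjusted p = 0.0069) and A_72_P442233 at -1.25 (adjusted p = 0.00564) in limma. In that fit 4 of 17 member probes passed, with 14.8% of all kept probes passing. On leaving out any 1 of the other 15 arrays A_72_P165551 did not pass, with limma adjusted p of up to 0.202. ADIPOQ, ADIPOR1 and NAMPT differed by -0.13, -0.19 and 0.35, without passing. With all arrays 1 of 17 probes passed, against 5.09% of all kept probes. At an unadjusted p under 0.05 there were 5 of 17, against 23.4% of all kept probes.

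**Figure D2:**
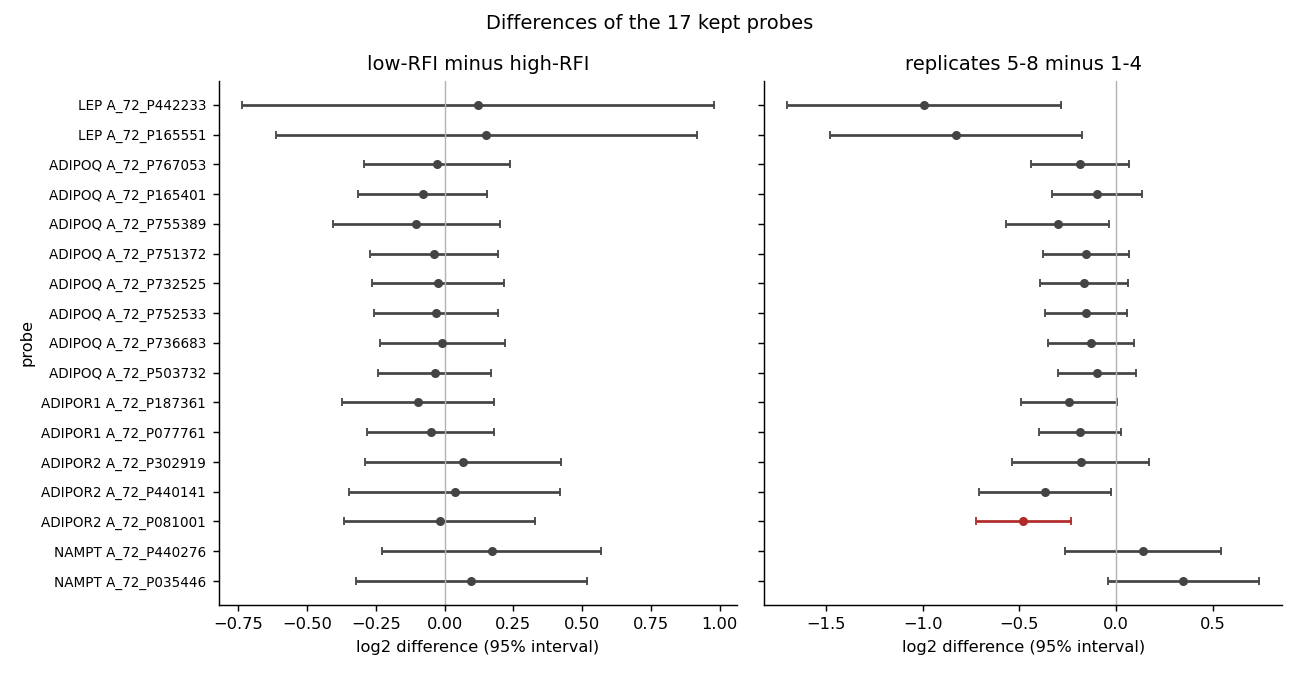
Log2 difference of each of the 17 kept probes with its 95% interval, low-RFI minus high-RFI (left) and replicates 5 to 8 minus 1 to 4 (right). The red probe, ADIPOR2 A_72_P081001 at -0.48, has an adjusted p under 0.05, and all intervals of the line differences include 0.

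Within the high-RFI line leptin fell in replicates 5 to 8. These pigs had 1.98, 1.30, 1.54 and 2.13 on A_72_P165551, against 3.22, 3.48, 3.20 and 3.32 in replicates 1 to 4. The sets did not overlap, and the difference was -1.57 (SE 0.19, limma adjusted p = 0.0101, n = 4 each), a signal 2.96-fold lower. Probe A_72_P442233 gave -1.76 (SE 0.20, limma adjusted p = 0.00923). ADIPOR2 also fell in replicates 5 to 8 of this line on 2 probes, A_72_P081001 by 0.74 (limma adjusted p = 0.0179) and A_72_P440141 by 0.65 (limma adjusted p = 0.0295).

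Within the low-RFI line the sets overlapped. LEP was at 2.53, 2.32, 3.04 and 2.63 in replicates 5 to 8 and at 2.41, 3.44, 1.50 and 3.52 in replicates 1 to 4, a difference of -0.09 (SE 0.43, limma adjusted p = 0.959). ADIPOR2 differed by -0.23 (limma adjusted p = 0.714). Of the 17 member probes, 4 passed within the high-RFI line and 0 within the low-RFI line, against 4.74% and 0% of all kept probes. Sets without overlap, with replicates 5 to 8 lower, were found for 6 of 17 member probes in the high-RFI line and for 0 in the low-RFI line, against 10.4% and 2.71% of all probes without missing values. The 6 were both LEP probes, ADIPOR2 A_72_P081001 and A_72_P440141, ADIPOQ A_72_P755389 and ADIPOR1 A_72_P187361. The comparisons within a line were added after the data had been seen.

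The test of whether the set difference depends on line did not pass. The line difference of LEP in replicates 5 to 8 minus that in replicates 1 to 4 was 1.48 (SE 0.50, unadjusted p = 0.0104, limma adjusted p = 0.708) and 1.53 (unadjusted p = 0.0156, limma adjusted p = 0.715) for the 2 probes, and 0.51 (SE 0.20, limma adjusted p = 0.722) for ADIPOR2 A_72_P081001. These were the 3 of 17 probes with an unadjusted p under 0.05, against 6.78% of all kept probes, and 0% passed after adjustment. Of the 17 probes, the 2 of LEP were those whose lines did not overlap within replicates 5 to 8, at 2.32 to 3.04 in low-RFI pigs against 1.30 to 2.13 in high-RFI pigs on A_72_P165551, a difference of 0.89 (SE 0.23, limma adjusted p = 0.848). Such a gap with low-RFI higher was found for 1.52% of all probes. In replicates 1 to 4 the difference was -0.59 (SE 0.41, limma adjusted p = 0.941), with overlap.

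The means of cell type markers were set beside these values. In high-RFI pigs the mean of the 16 adipocyte markers was -0.31 to 0.01 in replicates 5 to 8 against 0.03 to 0.23 in replicates 1 to 4, and in low-RFI pigs -0.20 to 0.21 against -0.34 to 0.28. Of these markers 1 of 16 fell between the sets with line in the model, against 3.68% of named genes: AQP7, a glycerol channel of adipocytes, by 0.67 (SE 0.16, limma adjusted p = 0.0263). Of 8 neutrophil markers 4 were measured (S100A8, S100A9, S100A12 and ELANE), while MPO, CXCR2, CSF3R and CAMP had no kept probe under those names. The mean of the 4 in high-RFI pigs was -1.05 to 0.55 in replicates 5 to 8 against 0.41 to 1.20 in replicates 1 to 4, and in low-RFI pigs -0.97 to -0.16 against -0.99 to 0.79. Of these 4, S100A9 fell in replicates 5 to 8 by 1.27 (SE 0.35, limma adjusted p = 0.046), against 3.68% of named genes. The median difference of the 4 was -1.29, and 1 of them, ELANE, was higher in replicates 5 to 8. Without the 4 arrays that stood apart AQP7 was at -0.63 (limma adjusted p = 0.138) and S100A9 at -1.18 (limma adjusted p = 0.145).

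The macrophage and T-cell means overlapped between the sets. In high-RFI pigs the 6 macrophage markers averaged -0.06 to 1.68 in replicates 5 to 8 against -0.56 to 0.28 in replicates 1 to 4, and the 7 T-cell markers -0.56 to 1.72 against -0.54 to 0.57. The highest value of both was that of replicate 5. In low-RFI pigs the macrophage markers averaged -0.73 to 0.14 in replicates 5 to 8 against -0.39 to 0.28 in replicates 1 to 4, and the T-cell markers -1.11 to 0.29 against -0.53 to 0.20. The part of these cells in the leptin and ADIPOR2 values was not tested.

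Leptin and ADIPOR2 varied together over the 16 arrays. Their correlation was r = 0.872 (permutation p = 3e-05, adjusted p = 0.0003 over 10 gene pairs) with rho = 0.871 (adjusted p = 0.0002), and r = 0.879 without the 2 arrays farthest from the LEP median. It was 0.892 within low-RFI pigs (exact permutation p = 0.00186, n = 8), 0.903 within replicates 1 to 4 (exact permutation p = 0.0135, n = 8) and 0.687 within replicates 5 to 8 (exact permutation p = 0.0611, n = 8). High-RFI pigs fell into the 2 replicate sets for LEP, with 4 pigs each, so no correlation is read within that line. In replicates 1 to 4, low-RFI replicates 1 and 3 lay apart, with LEP at 2.41 and 1.50 and ADIPOR2 at 7.91 and 7.68. The other pigs of that set had LEP at 3.20 to 3.52 and ADIPOR2 at 8.21 to 8.49. The r within that set therefore leans on these 2 pigs, and no relation among the others is read from it. The relation was weaker with the other ADIPOR2 probes, at 0.733 and 0.717 for A_72_P440141 and 0.486 and 0.440 for A_72_P302919 against the 2 LEP probes. The permutations over 16 arrays shuffled all of them freely, so a shift of both genes between the replicate sets also enters that p.

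Of the other 9 pairs of genes 1 passed. ADIPOQ and ADIPOR2 correlated at r = 0.670 (permutation p = 0.00413, adjusted p = 0.0206) but with rho = 0.585 (adjusted p = 0.096), and r was 0.451 without the 2 arrays farthest from the ADIPOQ median, which no longer passed. It was 0.761 within low-RFI pigs, which include neither of those arrays, 0.633 within high-RFI pigs, 0.508 within replicates 5 to 8 and 0.823 within replicates 1 to 4, of which only the last passed (exact permutation adjusted p = 0.044, n = 8). Leptin and adiponectin correlated at r = 0.470 (permutation p = 0.0661, adjusted p = 0.165), with -0.02 within replicates 5 to 8 and 0.694 within replicates 1 to 4. NAMPT correlated at -0.158 with LEP, -0.021 with ADIPOQ and -0.164 with ADIPOR2, none past the threshold (permutation adjusted p of at least 0.637 for each). NAMPT and LEP were at 0.072 within low-RFI pigs and -0.773 within high-RFI pigs (exact permutation p = 0.0095, n = 8), where LEP falls into the 2 sets. NAMPT and ADIPOR2 were at 0.688 within replicates 5 to 8 and 0.133 within replicates 1 to 4. With ADIPOR1 NAMPT correlated at 0.362 (permutation adjusted p = 0.308), with -0.035 without the 2 arrays farthest from the ADIPOR1 median. It was 0.690 within low-RFI pigs, -0.474 within high-RFI pigs, 0.407 within replicates 5 to 8 and 0.855 within replicates 1 to 4 (exact permutation p = 0.0088, n = 8).

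**Figure D3:**
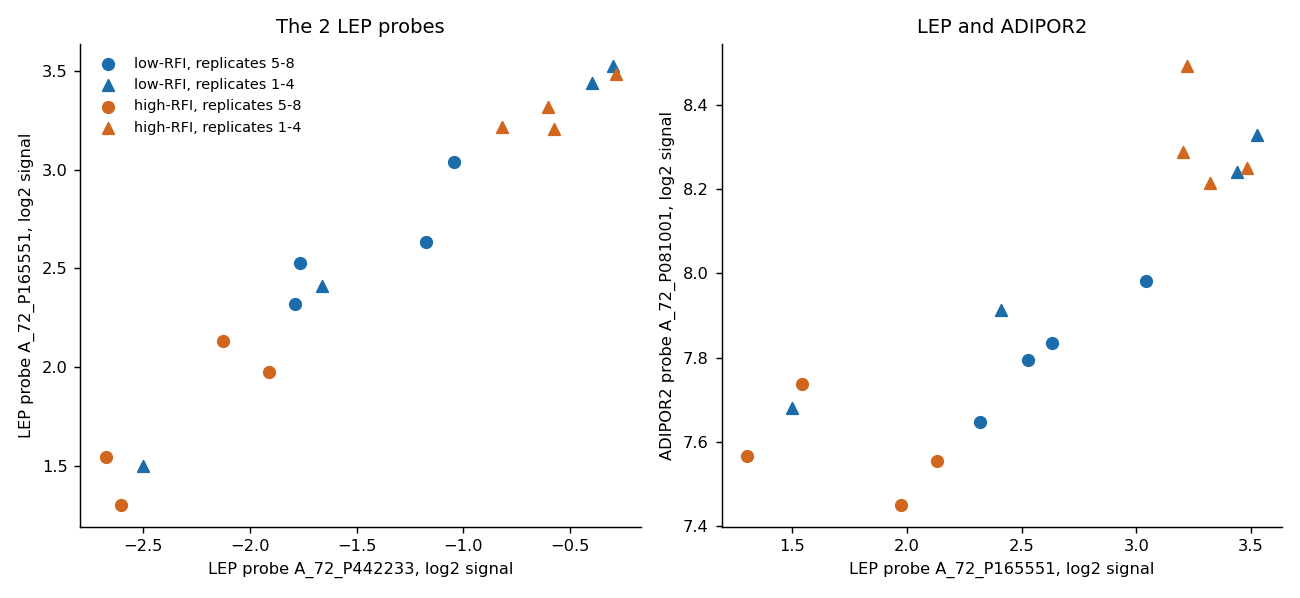
Log2 signal per array of the 2 LEP probes against each other (left, r = 0.983) and of ADIPOR2 against LEP (right, r = 0.872), with each of 16 pigs as a point. Replicates 5 to 8 of the high-RFI line lie at the low end of both plots, and replicates 1 to 4 of that line at the high end.

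**Figure D4:**
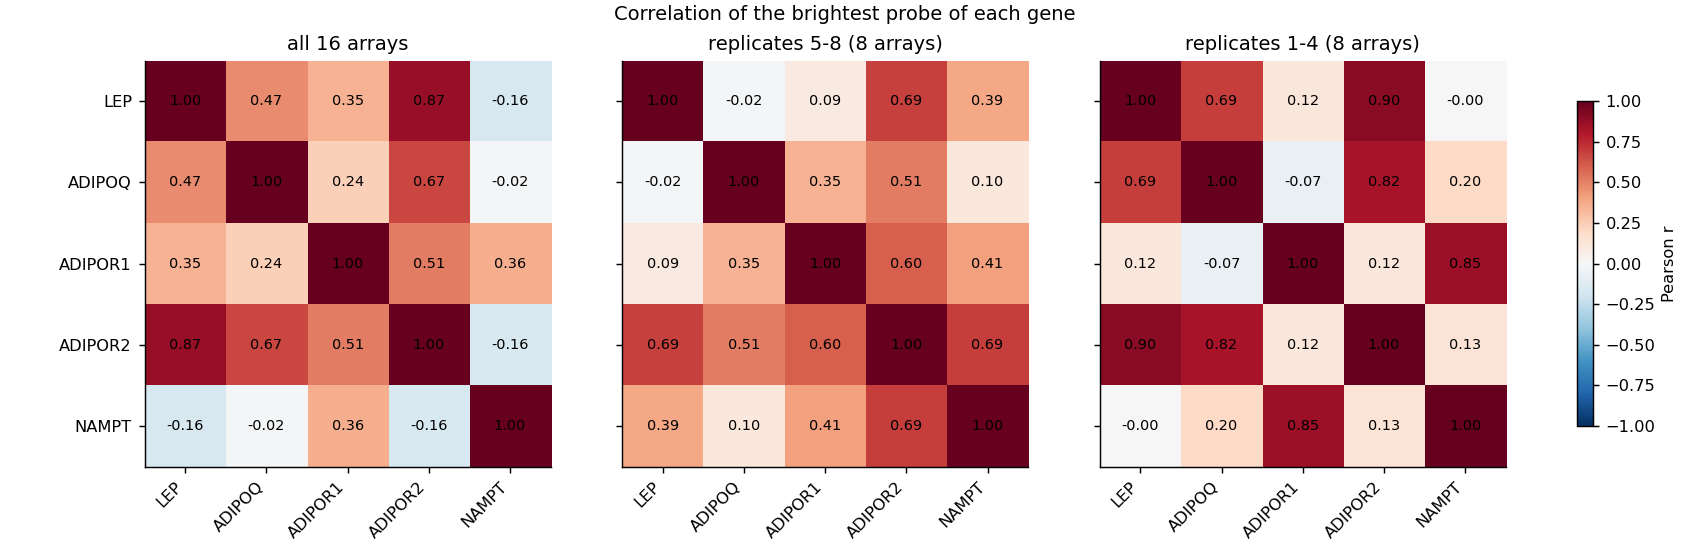
Pearson r between the brightest probes of the 5 genes over all 16 arrays and within each replicate set of 8 arrays. LEP and ADIPOR2 have r of 0.87 over all arrays, 0.69 in replicates 5 to 8 and 0.90 in replicates 1 to 4. In replicates 1 to 4, low-RFI replicates 1 and 3 lie below the other pigs on both genes.

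The same genes were set against the marker means (40 relations, p adjusted over these). The adipocyte mean correlated with ADIPOR2 at r = 0.722 (permutation adjusted p = 0.0249), with ADIPOQ at 0.716 (permutation adjusted p = 0.0249) and with LEP at 0.680 (permutation adjusted p = 0.0421). The neutrophil mean correlated with ADIPOR2 at r = 0.837 (permutation adjusted p = 0.008), with 0.179 within replicates 5 to 8 and 0.959 within replicates 1 to 4. That mean includes ELANE, which differed between the sets in the other direction from the remaining neutrophil markers.

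The named genes most like each member over the 16 arrays, out of 3979 others, are a description without a test, and all share the same arrays and replicate sets. For LEP they were SNX10, a sorting nexin (r = 0.917), SIRT5, a mitochondrial sirtuin (0.906), TSPO, the mitochondrial translocator protein (0.905), C1H15orf61 (0.895) and MGST1, a microsomal glutathione transferase (0.890), and the most opposed were CILP (-0.885), FAM171B (-0.876) and PI15 (-0.870). For ADIPOR2 they were DCAF8 (0.945), OXR1 (0.936), AQP7 (0.925), ATP6V1E1, a subunit of the proton pump (0.920), and HADH, a fatty acid oxidation enzyme (0.919), and the most opposed was C4A of complement (-0.937).

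For ADIPOQ the likeness was lower, with ROR2 (0.806), PDCL (0.787) and GPD1, glycerol-3-phosphate dehydrogenase (0.785), first. ADIPOR1 lay closest to 2 proteasome subunits, PSMA5 (0.888) and PSMD1 (0.887). NAMPT lay closest to CDC37L1 (0.888) and HARS, histidyl-tRNA synthetase (0.873), and SIRT1, an NAD-dependent deacetylase, was among its most opposed genes (-0.842).

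Other genes of these pathways were counted from lists and set beside all 4075 named genes, of which none passed between the lines, while between the sets 2.21% rose and 3.68% fell. Of 20 listed leptin signalling genes 12 were measured, and 0 of these passed either comparison. Between the lines JAK2, the kinase bound to LEPR, was at -0.24 (SE 0.11, limma adjusted p = 1) and LEPROT, the leptin receptor overlapping transcript, at 0.26 (SE 0.14, limma adjusted p = 1). Of 11 measured adiponectin signalling genes 2 fell between the sets: CDH13, the cadherin that binds adiponectin multimers, by 0.49 (SE 0.12, limma adjusted p = 0.0327), and PRKAG1, an AMPK subunit, by 0.31 (SE 0.09, limma adjusted p = 0.049). Without the 4 arrays that stood apart they were at -0.57 (limma adjusted p = 0.0886) and -0.25 (limma adjusted p = 0.201), and leaving out 1 array at a time ended the CDH13 call for 11 of 16 arrays and the PRKAG1 call for 13.

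The median difference between the sets was -0.19 over these 11 genes and -0.04 over all named genes. Of 10 measured other adipokines IL6 fell by 0.89 (SE 0.19, limma adjusted p = 0.0233), and of 2 measured resistin-binding genes TLR4, the lipopolysaccharide receptor, fell by 0.72 (SE 0.16, limma adjusted p = 0.0254). Without the 4 arrays that stood apart they were at -0.83 (limma adjusted p = 0.117) and -0.88 (limma adjusted p = 0.0763). Leaving out 1 array at a time ended the IL6 call for 0 of 16 arrays and the TLR4 call for 4, while with normexp IL6 was at -0.41 (limma adjusted p = 0.687). None of the 3 measured adiponectin assembly genes, the 7 transcription factors of LEP and ADIPOQ (median 0.08 between the lines and -0.02 between the sets) or the 4 NAD synthesis genes passed in either comparison. Between the lines no list had a member that passed in limma.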

How the data were processed

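Subcutaneous adipose tissue of 16 pigs was measured on 1 Agilent array per pig after labelling 150 ng of total RNA with Cy3, per the labels' protocols. The authors deposited processed spot intensities. Per the file headers, Feature Extraction 10.7.3.1 had subtracted background and removed spatial trends on each array, without scaling between arrays. The deposited flags mark spots well above background as 1. The authors' deposited table held log2 values, which on each array matched log2 processed signal centred on the median of its 28963 listed spots. The submitters' processing notes name R 2.10.0.

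Here, log2 of the processed signal minus each array's 75th percentile was used. Outlier spots were left out, and probes needed to be well above background on at least 8 arrays and have 6 values per line (32096 of 43603, with 609 values missing, none in the member probes). The number of arrays limits the precision. All probes were fitted in limma 3.58.1 (R 4.3.3), with Benjamini-Hochberg adjustment over all of them, two-sided, threshold 0.05. Correlations used 100000 permutations, or all 40320 orders of 8 arrays. Each gene was represented by its brightest kept probe. For each member the 5 most and 3 least alike named genes were listed, and for each pathway list the 2 genes with the smallest p per comparison, of which some are named. The members keep the gene names of the scanner files. Other genes were named from RefSeq records first, and from the scanner files where no record matched. The limma fits, but not the correlations, were tried on simulated data with independent noise for each probe and array. The members and lists were chosen with earlier results of these data known. Alternatives were normexp background correction, quantile normalization, other filters, array weights, slide and replicate blocks, single replicate sets, slides or lines, and leaving out arrays.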

Additional observations from a re-analysis of the deposited data

Results flagged for a closer look

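The LEPR signal of low-RFI replicate 2 was -3.08, far above the other low-RFI pigs, with a gap to the next pig of 0.562 of the group's range, past Dixon's critical value. The 40 groups of probe and line were examined for such values, and chance alone flags about 1 in 20 such groups. This probe was well above background on 2 arrays and RETN probe A_72_P505565 on 6 arrays, although both were left out of the comparisons.

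The line difference in replicates 5 to 8 minus that in replicates 1 to 4 was 1.48 and 1.53 for the 2 LEP probes and 0.51 for ADIPOR2 probe A_72_P081001, each with an unadjusted p under 0.05 in limma and an adjusted p of 0.708, 0.715 and 0.722. Without the 4 arrays that stood apart these became 1.32, 1.42 and 0.45, with unadjusted p of 0.0746, 0.0806 and 0.123 in limma.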

How the results depend on the processing

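Between the lines 0 member probes passed in every alternative that was run, while the sign of the differences changed in some. LEP low-RFI minus high-RFI was -0.03 with array weights, -0.59 within replicates 1 to 4, -0.26 and -0.52 within slides 2 and 3, and 0.00 without the 4 arrays that stood apart. ADIPOQ was 0.17 with normexp, 0.04 within replicates 5 to 8 and 0.03, 0.05 and 0.08 within slides 1, 2 and 4. ADIPOR1 was 0.02 within replicates 5 to 8 and 0.04 and 0.08 within slides 1 and 4. ADIPOR2 was 0.03 as the mean of its probes, 0.09 with normexp, 0.24 within replicates 5 to 8 and 0.08, 0.00 and 0.16 within slides 1, 2 and 4. NAMPT was -0.03 within replicates 1 to 4 and -0.12 within slide 2. Leaving out single arrays gave LEP -0.02 to 0.32, ADIPOQ -0.07 to 0.04, ADIPOR1 -0.10 to -0.01, ADIPOR2 -0.09 to 0.06 and NAMPT 0.02 to 0.26. The labels do not say whether same-numbered pigs of the lines are paired. Correlations between same-numbered pigs were -0.293 to 0.319, with no reference from other pairs. They are another measure than the correlations of arrays given earlier. With the replicate block LEP was 0.15 and ADIPOQ -0.01, with 0 member probes passing.

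The set difference of ADIPOR2 no longer passed at -0.34 as the mean of its probes, -0.48 without a filter on dim probes (limma adjusted p = 0.0518), -0.47 with normexp, -0.42 without the 4 arrays, -0.23 within low-RFI pigs, and -0.59, -0.46, -0.26 and -0.61 within slides 1 to 4 (4 arrays each). Leaving out single arrays gave -0.56 to -0.43. LEP passed at -1.57 within high-RFI pigs and ranged from -1.07 to -0.70 on leaving out arrays, where it passed only without low-RFI replicate 3. ADIPOQ was 0.19 within slide 3 and -0.17 to -0.07 on leaving out arrays, ADIPOR1 -0.25 to -0.15 and NAMPT 0.20 to 0.42, with NAMPT -0.12 and -0.11 within slides 3 and 4. Passing member probes numbered 1 with all arrays, 4 within high-RFI pigs, 0 within low-RFI pigs, within slides 1 to 4, with normexp, without a filter and without the 4 arrays, and 0 to 4 on leaving out arrays. Over all probes, 1634 passed with all arrays, 17 with normexp, 836 without a filter, 0 without the 4 arrays and 590 to 4749 on leaving out arrays. The interaction of ADIPOQ was -0.03 with quantile normalization and -0.01 to 0.20 on leaving out arrays, that of LEP 1.07 to 1.75, of ADIPOR1 0.02 to 0.23, of ADIPOR2 0.39 to 0.60 and of NAMPT -0.05 to 0.43.

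The LEP and ADIPOR2 correlation no longer passed within high-RFI pigs (0.88, where it rests on the 2 sets) and within replicates 5 to 8 (0.69). ADIPOQ and ADIPOR2 no longer passed within low-RFI pigs (0.76), high-RFI pigs (0.63), replicates 5 to 8 (0.51), with quantile normalization (0.51), without the 4 arrays (0.60) or without the 2 arrays farthest from the median (0.45). LEP and ADIPOQ was -0.02 within replicates 5 to 8. Of 10 gene pairs 2 passed with all arrays and with normexp, 3 within replicates 1 to 4, 1 within low-RFI pigs, with quantile normalization, without the 4 and without the 2 arrays, and 0 within high-RFI pigs and within replicates 5 to 8. Leaving out 1 array at a time ended the set call of AQP7 for 6 and that of S100A9 for 12 of 16 arrays, and none of AQP7, S100A9, CDH13, PRKAG1, IL6 and TLR4 passed with normexp in limma. The cause of these changes was not tested. The subsets also held fewer arrays, while normexp, quantile normalization and the fit without a filter kept all 16.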
